A study of Mus musculus and Homo sapiens with 12 samples.

Results

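Of the 65422 SIRT7 peaks on the autosomes of mouse embryonic fibroblasts (MEFs), 1341 were at least 6.25 kb wide. These wide peaks are described here. They were chosen by width alone, as the end minus the start of each peak on chromosomes 1 to 19 of mouse build mm9. They made up 2.05% of the autosomal peaks (95% exact binomial interval 1.94 to 2.16) and 7.54% of the length that those peaks covered, 9.15 of 121 Mb. The series used chromatin immunoprecipitation and sequencing (ChIP-seq) for SIRT7 and for acetylated lysine 18 of histone H3 (H3K18Ac), with 12 samples in 7 groups. The SIRT7 groups were wild-type MEFs of strain 129s2, taken from embryos of day 14.5 and used at passages 2 to 3, and the human chronic myeloid leukaemia line K562 (wild type), each with 2 samples. The labels name no treatment for these cells and give the same SIRT7 antibody for both. The MEF peak list is recorded under replicate 1. The H3K18Ac samples of wild-type MEFs, SirT7-/- MEFs and K562, and the 2 inputs, were not analysed here.

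SIRT7 is a NAD-dependent deacylase of the sirtuin family. It resides in the nucleus and nucleolus and removes the acetyl group from H3K18. The study's title places it at L1 elements and the nuclear lamina. L1 elements are retrotransposons that copy themselves through RNA, and a full-length mouse L1 carries a promoter of tandem repeats called monomers, then the open reading frames ORF1 and ORF2, then a tail. Full-length copies of one L1 family differ in length with the number of monomers, while most L1 copies are cut short at the end that holds the promoter. Endogenous retroviruses are the other long mobile elements of the mouse genome. Repeats, genes and sequence of build mm9 were not analysed here, and peaks are therefore identified by their coordinates, counted from 1.

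With 1 peak list there was no replicate error, and no p-value is given. Read depth is unknown from the list, and both width and score depend on it. Width chose the peaks, and the score came from the same peak call, so both are given as a description. All intervals are at 95%. They cover counting error alone and treat peaks as independent of one another, although peaks close together may not be. The wide peaks are set beside the 6818 autosomal peaks of 5.25 to 6.25 kb, the main group of wide SIRT7 peaks in these cells.

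The wide peaks fell into a shoulder and 2 modes. Their widths had a median of 6715 bp, quartiles of 6489 and 7146 bp and a maximum of 8737 bp. The shoulder, from 6.25 to 6.5 kb, held 354 peaks (26.4% of the wide peaks) and adjoined the main group. In steps of 50 bp it went down from 145 peaks at 6.25 to 6.3 kb to 27 at 6.4 to 6.45 kb, and its last step already held 60. The first mode lay near 6.6 kb. Counts rose again to 84 peaks at 6.55 to 6.6 kb, and the fullest window of 100 bp, 6.55 to 6.65 kb, held 161 peaks (Poisson interval 137 to 188), against 67 (51.9 to 85.1) at 6.35 to 6.45 kb. The second mode was lower and broader, with its fullest window between 7.15 and 7.25 kb. It is called the 7.1 kb mode here after the range of 7 to 7.25 kb, which ends at its fullest step, so that part of its upper side counts as above the range. The window from 6.775 to 6.875 kb held 61 peaks (46.7 to 78.4) and that from 7.15 to 7.25 kb held 114 (94.0 to 137), after which the counts fell to 12 (6.20 to 21.0) at 7.525 to 7.625 kb. All these windows were picked as the fullest or emptiest around each mode. Their intervals take no account of that choice, so they do not test whether the modes are separate. Inside the second mode no single step stood far above the others, with 48, 50, 52 and 62 peaks in the successive steps of 50 bp from 7.05 to 7.25 kb and 47 at 7.3 to 7.35 kb.

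**Figure D1:**
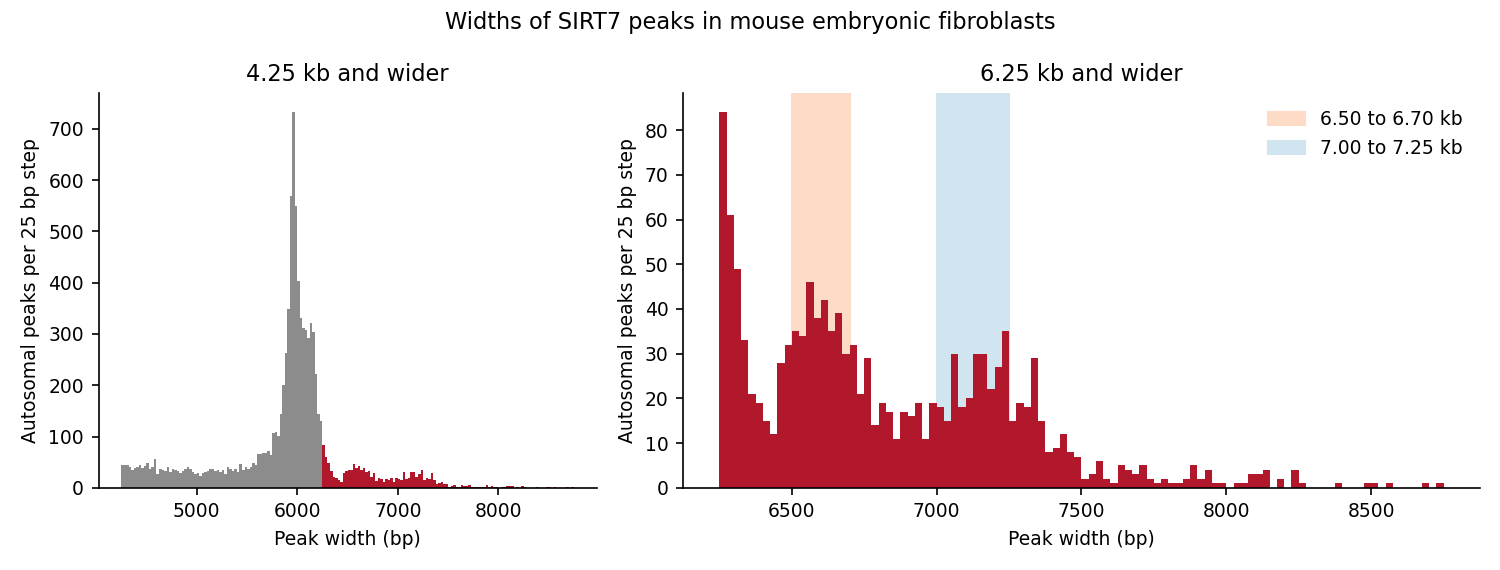
Number of autosomal SIRT7 peaks per 25 bp step of width (vertical axes, peaks per step) against width in bp (horizontal axes), for peaks of 4.25 kb and wider (left) and the 1341 wide peaks alone (right). Red bars are peaks of at least 6.25 kb, which follow the main group as a shoulder and the modes near 6.6 and 7.1 kb (shaded ranges). The second range ends at the fullest step of that mode.

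By ranges taken from earlier results on these data, 299 wide peaks lay in the 6.6 kb mode (6.5 to 6.7 kb), or 22.3% (20.1 to 24.6), and 245 in the 7.1 kb mode (7 to 7.25 kb), or 18.3% (16.2 to 20.4). Another 225 peaks lay between the ranges and 218 above them, of which 140 were 7.25 to 7.5 kb wide and 78 were wider still. A gap between peaks can split one region into several, so peaks less than 1 kb apart were also joined. Joining raised the number of wide regions to 1686, of which 398 were made of several peaks, and left both modes in place. The window from 6.55 to 6.65 kb then held 170 regions and that from 7.15 to 7.25 kb 130, against 71 at 6.35 to 6.45 kb and 74 at 6.85 to 6.95 kb. Of these, 14 at 6.55 to 6.65 kb and 22 at 7.15 to 7.25 kb were joined from several peaks. Most regions in either mode were thus single peaks as deposited.

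The authors' score fell steeply as the wide peaks grew wider. It had a median of 159 in the wide peaks, with quartiles of 119 and 212 and a range from 50.2 to 326. In the shoulder the median was 234, in the 6.6 kb mode 197 (quartiles 167 and 217), between the modes 153, in the 7.1 kb mode 126 (105 and 144), at 7.25 to 7.5 kb 117 and above 7.5 kb 80.4. The middle ranges of the 2 modes did not overlap. Across the wide peaks Spearman's rho of width and score was -0.76, while it was -0.10 across the peaks of 5.25 to 6.25 kb and 0.59 across all autosomal peaks. These correlations are across the peaks of one list and describe that list. Within a mode rho was -0.11 in the 6.6 kb mode and -0.19 in the 7.1 kb mode. Each mode covers a narrow range of widths, which by itself lowers rho, so these values do not show a step between the modes. In steps of 50 bp the median score was 193 at 6.65 to 6.7 kb and 177 at 6.7 to 6.75 kb. It was 151 at 6.8 to 6.85 kb and 132 at 6.95 to 7 kb.

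**Figure D2:**
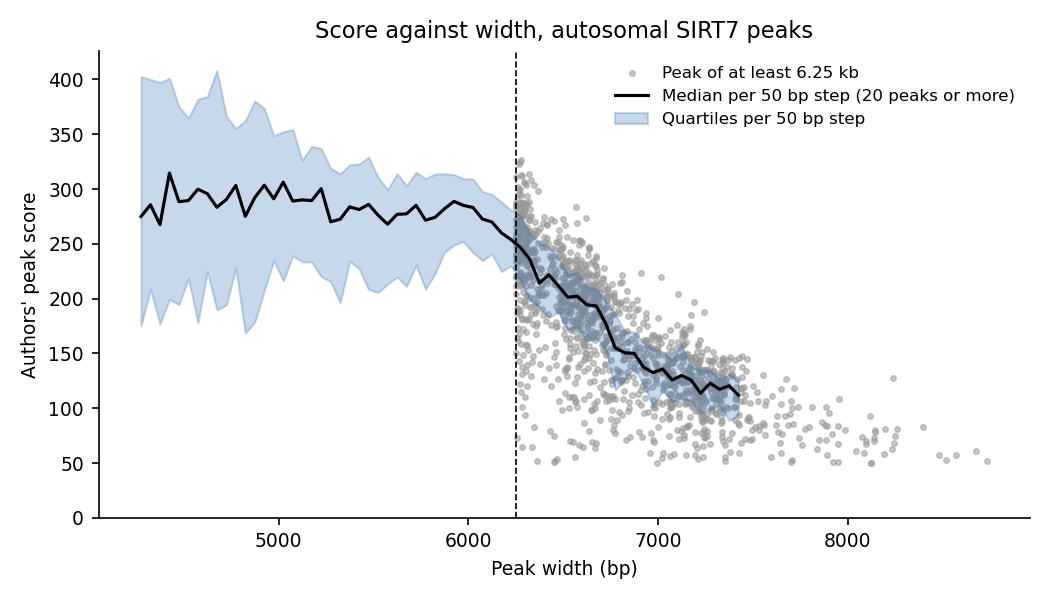
Authors' peak score (vertical axis) against peak width in bp (horizontal axis) on the autosomes: grey points are the 1341 wide peaks, and the line and band are the median and quartiles per 50 bp step with at least 20 peaks. The median is near 285 at 5.95 to 6 kb, 202 at 6.55 to 6.6 kb and 126 at 7.15 to 7.2 kb; the dashed line marks 6.25 kb.

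Both very high and low scores were less frequent among the wide peaks than in the whole list. A score over 300 occurred in 14 of them (1.04%) in 2071 (30.4%) of the peaks of 5.25 to 6.25 kb and in 19.8% of all autosomal peaks. A score under 100 occurred in 193 wide peaks (14.4%) in 2.79% of the main group and in 33.5% of all autosomal peaks. The median of all autosomal peaks was 146, below the 159 of the wide peaks. The highest-scoring peak of the 6.6 kb mode lay at chr2:129886667-129893234, with a width of 6568 bp and a score of 283. The next were chr1:116499929-116506548, with a score of 274, and chr5:67428773-67435348, with one of 269. In the 7.1 kb mode the highest scores were 220.2 at chr8:63216823-63223837, 204 at chr4:51885843-51892947 and 197 at chr14:34793449-34800637. The highest scores of all wide peaks were in the shoulder: 326 at chr16:13176419-13182697, 325 at chr7:11057755-11064026 and 323 at chr6:49567038-49573304. These 3 peaks were 6267 to 6279 bp wide. At the other end, the widest peaks barely passed the list's lowest score of 50.0. The widest peaks measured 8737 bp at chr19:9903067-9911803 (score 52.0), 8679 bp at chr1:102120161-102128839 (60.7) and 8573 bp at chr2:64462853-64471425 (57.7).

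The threshold of 6.25 kb cut through a smooth slope. The 145 peaks of 6.25 to 6.3 kb had a median score of 247 and the 273 peaks of 6.2 to 6.25 kb one of 254. Just inside lay 3 peaks of exactly 6.25 kb, at chr4:105850008-105856257 (score 285), chr1:73693768-73700017 (259.6) and chr5:103362777-103369026 (219.6). Just outside, at 6249 bp, lay chr4:9421109-9427357 (303), chr11:27584652-27590900 (281) and chr14:88314986-88321234 (221). Peaks on both sides of the threshold had a median of 34 other SIRT7 peaks within 500 kb.

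The wide peaks were spread over all 19 autosomes, and both modes occurred on each. Over the span from first to last peak, their density was 0.555 per Mb. Chromosome 13 was the densest with 84 peaks, 0.716 per Mb (0.571 to 0.887), followed by chromosome 16 with 64 peaks, 0.672 (0.517 to 0.858), and chromosome 9 with 77 peaks, 0.636 (0.502 to 0.795). The intervals of these 3 overlapped. Chromosome 11 was the sparsest with 49 peaks, 0.413 per Mb (0.305 to 0.545), and the next, chromosomes 17 (0.456), 18 (0.468) and 19 (0.480), did not differ from it beyond their intervals. Chromosome 13 held 1.74 times (1.21 to 2.52) the density of chromosome 11, a pair picked as the extremes. The peaks of 5.25 to 6.25 kb ranged from 1.80 per Mb on chromosome 11 to 3.67 on chromosome 3. That ratio of 2.04, also between extremes, lay within the interval of the ratio for the wide peaks.

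Relative to the main group, chromosomes 9 and 13 were rich in wide peaks and chromosome 3 was poor. All autosomes together had 19.7 wide peaks per 100 peaks of 5.25 to 6.25 kb (18.5 to 20.9). Chromosome 9 had 28.5 per 100 (21.8 to 36.9) and chromosome 13 had 26.25 (20.4 to 33.5), against 14.3 (11.2 to 18.03) on chromosome 3 and 15.3 (10.7 to 21.3) on chromosome 18. Chromosome 3, the densest in the main group, thus held 574 such peaks and 82 wide ones, whereas chromosome 9 held 270 and 77. The intervals of chromosome 18 and of all autosomes other than 3, 9 and 13 included the value for all autosomes together. The share of wide peaks in the 6.6 kb mode ran from 15.2% to 31.0% and that in the 7.1 kb mode from 10.7% to 24.6% across autosomes, on as few as 28 wide peaks on chromosome 19. Median widths ran from 6608.5 to 6877 bp and median scores from 134 to 178.

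**Figure D3:**
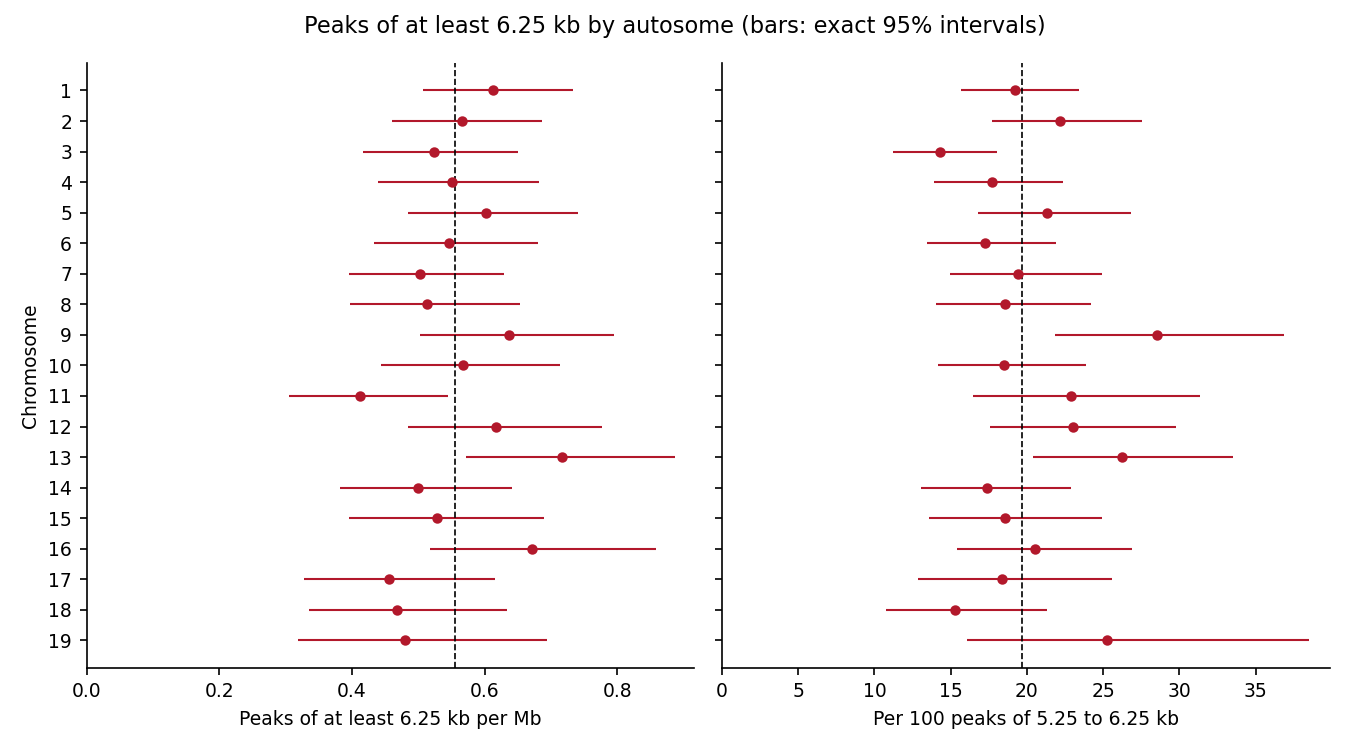
Wide peaks on each autosome (vertical axis), per Mb of span (left) and per 100 peaks of 5.25 to 6.25 kb (right); points are values, bars exact 95% intervals for counting error and dashed lines all autosomes together (0.555 per Mb and 19.7 per 100). Chromosomes 13 and 11 are the extremes on the left, and chromosomes 9 and 3 on the right.

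A larger share of the wide peaks than of the main group lay toward the end of the chromosomes. Mouse autosomes have their centromere at the start of the assembly. The last 20% of the span held 18.6% (16.5 to 20.8) of the wide peaks, against 13.3% (12.5 to 14.1) of the peaks of 5.25 to 6.25 kb and 15.2% of all autosomal peaks. The first 20% held 21.8% (19.7 to 24.2), against 23.3% (22.3 to 24.3) and 23.6%, with intervals that overlapped. Both modes were near the value for all wide peaks, with 18.7% and 18.4% in the last part. The 218 peaks above 7.25 kb had 13.8% (9.48 to 19.1) there, near the main group. Among the 140 peaks of 7.25 to 7.5 kb, noticed after the values were seen, 33.6% (25.8 to 42.0) lay in the first part and 15.7% in the last. The 78 peaks above 7.5 kb did not share this, with 16.7% (9.18 to 26.8) in the first part and 10.3% in the last.

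Wide peaks stood in regions with fewer SIRT7 peaks than the main group did. The median number of other peaks within 500 kb of the centre was 30 (29 to 31) for the wide peaks, with quartiles of 19 and 40, and 35 (35 to 35) for the peaks of 5.25 to 6.25 kb, with quartiles of 26 and 43. It was 33 (30 to 34) in the shoulder, 28 (25 to 31) in the 6.6 kb mode, 29 (25 to 31) in the 7.1 kb mode and 31 above 7.25 kb, against 34 for all autosomal peaks. Of those above 7.25 kb, the 140 peaks up to 7.5 kb had 29 (25 to 34). The 78 peaks above 7.5 kb had 33 (30 to 36), an interval that included the 35 of the main group. Below the threshold the number hardly moved with width, at 34 to 37 in every step of 250 bp from 4.25 to 6.25 kb. On each of the 19 autosomes taken alone the median for the wide peaks was below that for the main group, at 0.667 to 0.938 of it. The lowest of these ratios was that of chromosome 9, with 22 other peaks around a wide peak and 33 around a peak of the main group.

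**Figure D4:**
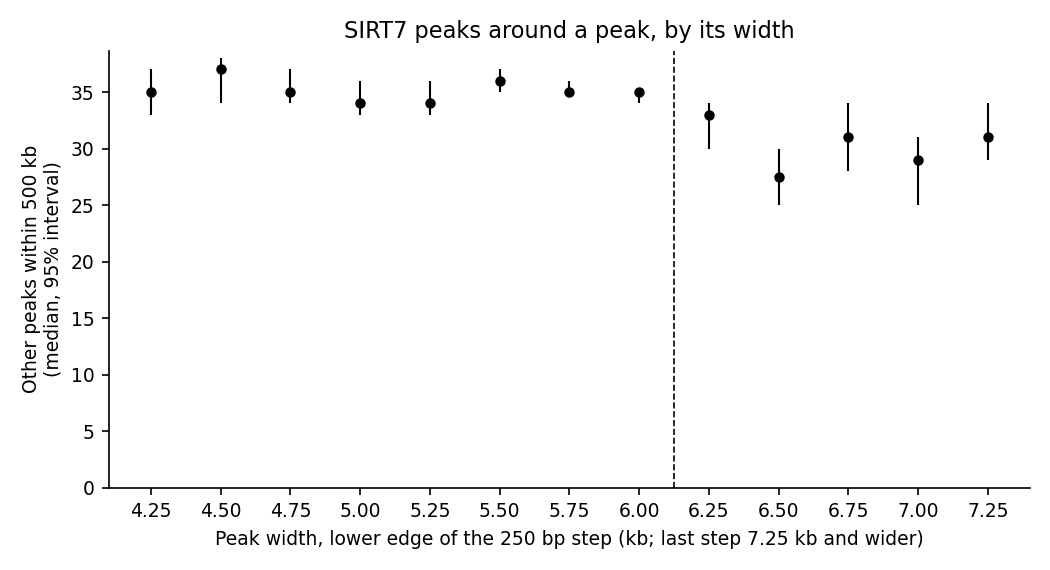
Median number of other SIRT7 peaks whose centre lies within 500 kb (vertical axis, with 95% order-statistic intervals) by peak width in steps of 250 bp (horizontal axis, last step open) on the autosomes. The medians are 34 to 37 below the dashed line at 6.25 kb and 27.5 to 33 above it.

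The difference was concentrated in the sparsest surroundings. All wide peaks and peaks of the main group were ranked by this number and divided into quintiles. In the sparsest quintile, with 23 or fewer other peaks, there were 471 wide peaks and 1322 of the main group, or 35.6 per 100 (32.0 to 39.6). The next quintile had 18.98 per 100 (16.5 to 21.7), and the remaining 3 had 15.3, 15.0 and 14.2 (12.2 to 16.5 in the densest, with 45 or more). The ratio between the sparsest and the densest quintile was 2.51 (2.08 to 3.03). The sparsest quintile thus held 35.1% of the wide peaks and 19.4% of the main group, and the share was larger for the wide peaks on 19 of 19 autosomes. The ratio was 2.67 (1.87 to 3.87) for the 6.6 kb mode, 2.55 (1.73 to 3.81) for the 7.1 kb mode and 2.18 (1.53 to 3.15) for the shoulder, with intervals that overlapped. For peaks of 4.25 to 5.25 kb it was 1.12 (0.937 to 1.34).

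**Figure D5:**
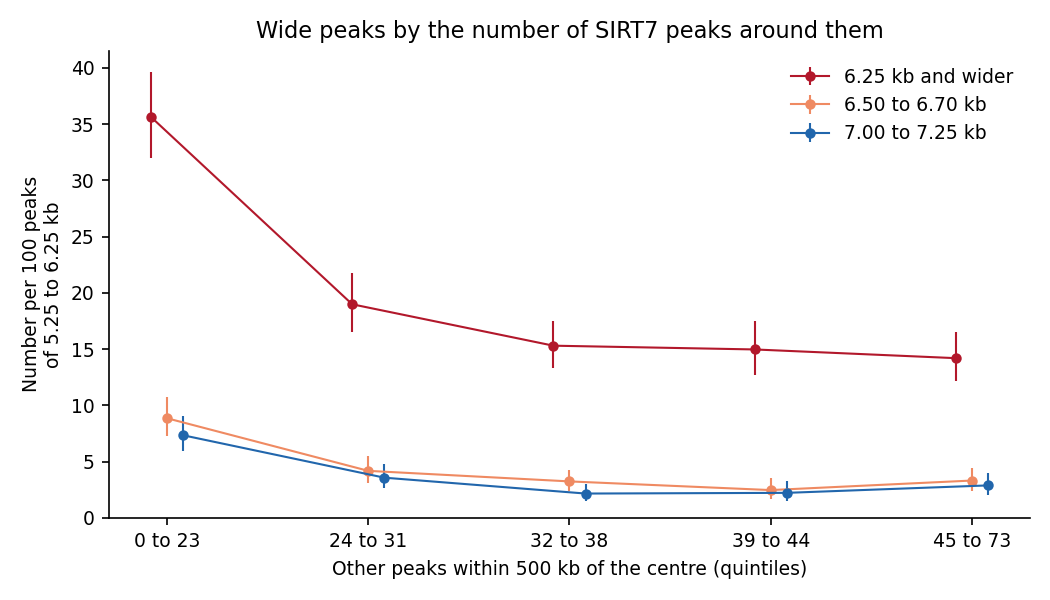
Number of wide peaks per 100 peaks of 5.25 to 6.25 kb (vertical axis, with exact 95% intervals) by quintile of the number of other SIRT7 peaks within 500 kb (horizontal axis), for all wide peaks and for each mode. Values fall from 35.6 to 14.2 for all wide peaks, with the largest step between the first and second quintile in each set. The 6.6 kb mode goes from 8.85 to a lowest value of 2.47 in the fourth quintile and is 3.31 in the densest. The 7.1 kb mode goes from 7.34 to a lowest value of 2.16 in the third quintile and is 2.88 in the densest.

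Median width differed little along these quintiles, from 6652 to 6746.5 bp, while median scores varied more within the modes. The median score of the wide peaks was 165 in the sparsest quintile and 155 in the densest, with 151 to 159 in the quintiles between. In the 7.1 kb mode the median scores were 126, 134, 120, 110 and 125 from the sparsest quintile to the densest, with no steady order. In the 6.6 kb mode they ran from 204 in the sparsest to 184 in the densest. Sparse surroundings therefore went with more wide peaks relative to the main group, while the median width within the wide peaks stayed alike.

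The share of wide peaks with a neighbour within 10 kb was also below that of the main group, which was not so under 1 kb. The nearest peak of any width lay a median of 12323 bp away from a wide peak, counted from edge to edge, against 10661 bp for the main group and 7695 bp for all autosomal peaks. A peak within 10 kb was found for 43.0% (40.4 to 45.7) of the wide peaks, 47.5% (46.3 to 48.7) of the main group and 57.0% of all. For the 78 peaks above 7.5 kb the share was 52.6% (40.9 to 64.0). Within 5 kb the shares were 20.2% (18.1 to 22.5) of the wide peaks and 22.5% (21.5 to 23.5) of the main group, with intervals that overlapped. No peak within 50 kb was found for 131 wide peaks (9.77%), against 5.56% of the main group. Under 1 kb the order was the other way, with overlapping intervals: 53 wide peaks (3.95%, 2.97 to 5.14) had a peak less than 1 kb away, beside 2.89% (2.50 to 3.32) of the main group. Both were below the 22.0% of peaks narrower than 4.25 kb. Of these 53 neighbours, 38 were narrower than 4.25 kb, 7 were of the main group and 6 were themselves wide peaks. The gap was under 50 bp in 17 cases. The peaks next to a wide peak on either side had a median width of 951 bp and a median score of 155, beside 978 bp and 146 for neighbours of all autosomal peaks.

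Wide peaks were not closer to each other than peaks in general were to wide peaks. The nearest other wide peak was a median of 588 kb away from a wide peak, 578 kb from a peak of the main group and 590.0 kb from any autosomal peak. Another wide peak lay within 100 kb of 165 wide peaks, or 12.3% (10.6 to 14.2), and a wide peak lay within 100 kb of 11.8% (11.05 to 12.6) of the main group and 11.6% of all autosomal peaks. A main-group peak lay within 100 kb of 44.1% (41.4 to 46.8) of the wide peaks, against 50.0% (49.6 to 50.4) of all autosomal peaks, 52.0% of peaks of 4.25 to 5.25 kb and 53.9% (52.7 to 55.1) of the main group itself. This share was 40.8% in the 6.6 kb mode and 39.6% in the 7.1 kb mode, and 61.5% (49.8 to 72.3) in the 78 peaks above 7.5 kb. Linked at 100 kb, 1176 wide peaks stood alone, 79 pairs were formed, and there was 1 run of 3 and 1 of 4. In bins of 1 Mb the excess of the variance over the mean, divided by the squared mean, was 0.171 for the wide peaks, 0.357 for the main group and 0.222 for all peaks. The wide peaks had the lowest of these values, but no interval was computed for them, so a more even spread is not shown.

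The modes were mixed with each other along the genome. The nearest wide peak of a 6.6 kb mode peak was itself in that mode in 69 of 299 cases, or 23.1% (18.4 to 28.3), close to the mode's share of 22.3%. For the 7.1 kb mode it was 46 of 245, or 18.8% (14.1 to 24.2), close to the share of 18.3%. The nearest wide peak was of the other mode in 22.4% (17.8 to 27.6) for the 6.6 kb mode and in 27.8% (22.2 to 33.8) for the 7.1 kb mode. Of the 1341 wide peaks, 797 lay outside both ranges. Another such peak was nearest to them in 63.9% (60.4 to 67.2), somewhat above their share. Within 100 kb, the nearest wide peak of 41 peaks in the 6.6 kb mode was of the same mode in 10 cases and of the 7.1 kb mode in 11. For 32 peaks in the 7.1 kb mode it was of the same mode in 6 cases and of the 6.6 kb mode in 11.

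Of 2414 bins of 1 Mb with a peak, 997 (41.3%) held a wide peak. Most of these, 725, held 1, 216 held 2, 44 held 3, 8 held 4 and 4 held 5. The 4 fullest bins had quite different surroundings, with 12 to 49 peaks of any width. The bin from 13 to 14 Mb of chromosome 16 had 5 wide peaks among 12 SIRT7 peaks and no peak of 5.25 to 6.25 kb. Its first 4 followed one another with no other peak between them: 6684 bp from 13087595 to 13094278 (score 186), 7115 bp from 13099863 to 13106977 (126), 6760 bp from 13133659 to 13140418 (171) and 6279 bp from 13176419 to 13182697 (326). The gaps between these 4 were 5584, 26681 and 36000 bp, and they hold the shoulder's highest score and a member of each mode. The fifth, of 6709 bp, lay from 13908202 to 13914910 with a score of 114.

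The bin from 142 to 143 Mb of chromosome 2 had 5 wide peaks among 25 and 1 peak of the main group. They were 7000, 6477, 6636, 6891 and 7762 bp wide, with scores of 83.0, 244, 146, 199 and 66.2, and began at 142022889, 142289914, 142302643, 142614704 and 142772384. The bin from 78 to 79 Mb of chromosome 5 had 5 among 48, with 7 of the main group. They began at 78124533, 78197712, 78515604, 78628427 and 78759695, were 6268 to 6943 bp wide and scored 113 to 240.2. The fourth bin with 5, from 41 to 42 Mb of chromosome 17, held 5 among 49, with 7 of the main group. They began at 41116417, 41182637, 41442418, 41740436 and 41794504, were 6351 to 7102 bp wide and scored 157 to 203. These 4 bins, picked as the fullest of 2414, thus lay in peak-poor and in peak-rich megabases. Over all bins the variance of the number of wide peaks was 1.10 times its mean. Whether the fullest bins exceed a random spread was not tested.

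The closest pair lay on chromosome 17, from 69674526 to 69680832 and from 69680840 to 69687597. These peaks were 6307 and 6758 bp wide, scored 158 and 98.0 and were 7 bp apart. In all, 3 pairs of wide peaks were less than 1 kb apart. Exact repeats of a peak, its neighbour and the gap between them, which occurred elsewhere in the list with 41 autosomal pairs, included no wide peak. Wide peaks were 2.05% of the autosomal peaks, so few would be met among so few pairs, and their absence does not set them apart. One pair of wide peaks had the same width of 7256 bp and the same score of 135, at chr4:21310679-21317934 and chr10:23591067-23598322. That pair was named after its values were seen.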

How the data were processed

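SIRT7 ChIP-seq peaks of MEFs were analysed from the list of the authors, recorded under replicate 1. Nuclear extracts of formaldehyde-fixed cells were used for SIRT7, with chromatin sheared to fragments of 150 to 300 bp on average, per the labels' protocols. The submitters' processing notes name Trimmomatic 0.36, Bowtie, SAMtools 0.1.19, MACS 1.4.2 and the builds mm9 and hg19. Which control was used, whether multi-mapping reads were kept and whether replicates were pooled is not given in the sources used here. The authors deposited a score for each peak, which MACS 1.4 computes as 10 × −log10 of the p-value, so that the lowest, 50.0, stands for 1e-05, and which served to describe peaks within the list. Depth is unknown.

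Widths, edge-to-edge gaps, distances between centres and peak numbers per window were computed with Python 3.11.15, numpy 2.4.6, pandas 2.3.3 and scipy 1.17.1, and figures with matplotlib 3.10.9. Shares have exact binomial, counts exact Poisson, ratios exact conditional and medians order-statistic intervals at 95%. Functions were tested on simulated data. The wide peaks, ranges and measures were chosen with earlier results of these data known. The quintiles, the position along the chromosome and the comparison of each autosome alone were added after the data were seen. Named peaks are the 3 widest, the 3 highest-scoring in each mode and elsewhere, 3 on either side of the threshold, those of the fullest 1 Mb bins and the closest pair. Bins tied at 5 peaks, so 4 bins are named in place of 3. Genes, repeats and base composition were not analysed here, as no mm9 reference was used.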

Additional observations from a re-analysis of the deposited data

How the results depend on the processing

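Under the 14 alternatives, the quintile ratio stayed above 1, rho stayed negative and wide peaks kept fewer peaks around them than the main group wherever these were recomputed. Other comparisons with the main group or with all peaks, on distances, chromosome position and bins, were not recomputed. Of all values, 39 of 74 stayed within their counting interval or, for the number of peaks, within 1.5 times. The ratio between the sparsest and densest quintile ran from 1.66 to 2.63. It was 1.66 with a threshold of 6 kb, which takes in part of the main group. That threshold also gave 4106 peaks, modes of 7.28% and 5.97%, 35.3% with another wide peak within 100 kb, 2.73% less than 1 kb from a peak, 34 peaks around, a median score of 245 and a rho of -0.593. A threshold of 6.5 kb gave modes of 30.3% and 24.8%, 9.22% with another wide peak within 100 kb, a median score of 139 and a rho of -0.704. Scores of at least 100 gave 20 peaks around a wide peak and 23 around the main group, a median score of 176, a 6.6 kb mode of 24.9%, 1.92% less than 1 kb from a peak and 31.0% with one within 10 kb. Merging under 1 kb gave a rho of -0.508, 28 and 32 peaks around, and a 6.6 kb mode of 18.8%. Windows of 250 kb gave 15 and 18 peaks around, and counting only peaks under 4.25 kb gave 25 and 29. Adding the X chromosome gave 36 around the main group. The 6.6 kb mode held 30.7% at 6.45 to 6.75 kb, and the 7.1 kb mode 11.2% at 7.05 to 7.2 kb and 22.97% at 7.05 to 7.375 kb. A peak lay within 5 kb of 20.2%, and another wide peak within 50 kb of 6.41% and within 500 kb of 45.4%. Each setting keeps or joins other peaks, draws a width range anew or counts over other distances. What moved each value was not tested. The settings with the X chromosome, the range to 7.375 kb, peaks under 4.25 kb and chromosome ends left out were chosen after seeing the data, as were all alternatives to the score, rho, the quintile ratio, the number of peaks around the main group and the share less than 1 kb from a peak. Chromosome 3 replaced chromosome 13 as the densest at 6 kb. No paired analysis was possible because the fibroblast peaks came as 1 list, with none per replicate. Unknown depth limits every width and score, and a region without a wide peak is not shown to lack SIRT7.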

Other observations

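The X chromosome, outside the autosomes described, held 109 SIRT7 peaks of at least 6.25 kb, or 1.55% of its 7053 peaks. Of these, 20 lay in the 6.6 kb mode and 25 in the 7.1 kb mode, and their median score was 144. Relative to the 689 X peaks of 5.25 to 6.25 kb there were 15.8 per 100 (12.8 to 19.4), where the autosomes had 19.7 (18.5 to 20.9).

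In K562 cells, a human line on build hg19 with another unknown depth, 6 of 40790 autosomal SIRT7 peaks (0.0147%) were at least 6.25 kb wide, beside 289 of 5.25 to 6.25 kb. None lay in either mode range. The widest, of 7624 bp at chr1:564253-571876, had a score of 952. The others were 6273 to 7364 bp wide and scored 57.6 to 521. These values stand side by side and were not compared with those of MEFs.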
